A study of Homo sapiens with 24 samples.

Results

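The genes described here are the 6 core genes of the cytosolic DNA sensing route that runs through cGAS and STING: MB21D1 (cGAS), TMEM173 (STING), TBK1, IKBKE, IRF3 and TREX1. They were chosen by name, for their roles in the route, with earlier results of these data known, and are 6 of the 29744 genes in the deposited count table. MB21D1 and TMEM173 are the older symbols, used in the table, of CGAS and STING1. RNA of 2 established cell lines of triple-negative breast cancer, HCC1806 (basal-like) and MDA-MB-231 (mesenchymal-like), was read in 24 libraries by TAGseq, a method that sequences the 3′ ends of polyadenylated transcripts. In each line the parental aneuploid population (called control) was set against 3 populations with a doubled genome, each made by another route: fusion of cells, mitotic slippage (an exit from mitosis without division) or cytokinesis failure (division of the nucleus without division of the cell). All 8 groups were seeded at 200000 cells and grown for 48 h with no further treatment, and each held 3 biological replicates. The doubled cells had been isolated by cell sorting and then expanded. Each route is represented by 1 derived population per line, so that route and population cannot be told apart, and every p-value below rests on the spread between replicates of a population.

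cGAS is an enzyme that binds double-stranded DNA in the cytosol and makes the second messenger cyclic GMP-AMP (cGAMP). cGAMP binds STING, a membrane protein of the endoplasmic reticulum, which then recruits the kinase TBK1 or its relative IKBKE (IKK-epsilon); these phosphorylate IRF3, a transcription factor that switches on type I interferon and interferon-stimulated genes. TREX1 is an exonuclease that degrades DNA in the cytosol and so limits the signal. In tumour cells with unstable chromosomes, DNA from ruptured micronuclei is a known source of cGAS activation.

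Library totals ran from 3060622 to 4030297 estimated counts in HCC1806 and from 2455707 to 3837957 in MDA-MB-231. Counts of replicate pairs gave 1.29 to 1.92 for chi-square over its degrees of freedom, except in the pairs that hold MDA-MB-231 slippage replicate 3 or cytokinesis failure replicate 1, where it was 2.34 to 2.55; these are called the noisier libraries. Basal epithelial markers summed to 1347 to 1673 CPM (counts scaled to the library total) in HCC1806 and 10.2 to 19.3 CPM in MDA-MB-231, with KRT14 and KRT6A at 0 in all libraries of the latter. Fibroblast markers summed to at most 7.94 CPM in either line. Differences are log2 fold changes ± standard error, and levels are TMM-scaled CPM. A gene was called when its edgeR quasi-likelihood p, adjusted by Benjamini-Hochberg over all genes tested (11467 in HCC1806, 11424 in MDA-MB-231), was below 0.05, and rose or fell is written of called genes only. These are bulk samples, in which fewer cells of a type and less RNA per cell cannot be told apart. Wherever libraries of compared groups are said not to overlap, how many of all genes separate likewise was not counted.

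All 6 genes were read in every library and passed the filter on low counts in both lines. Of the 18 tests of the 6 genes against control in HCC1806, 0 were called by edgeR, and 2 had an unadjusted p below 0.05, both for IRF3. Over all genes tested there, the share called was 10.9% for fusion, 3.33% for slippage and 17% for cytokinesis failure. In MDA-MB-231, 1 of 18 tests was called, TMEM173 in fusion, where 17.4% of all genes were called; 6.18% were called in slippage and 4.64% in cytokinesis failure. The number called in MDA-MB-231 went from 0 to 2 when single libraries were left out: it was 0 without control replicate 1 or fusion replicate 2, and 2 without control replicate 2, fusion replicate 3 or slippage replicate 3. The median fold change of the 6 genes was -0.16, 0.16 and 0.07 in HCC1806 fusion, slippage and cytokinesis failure, and -0.20, -0.13 and -0.04 in MDA-MB-231, beside medians of all genes within 0.01 of 0.

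**Figure D1:**
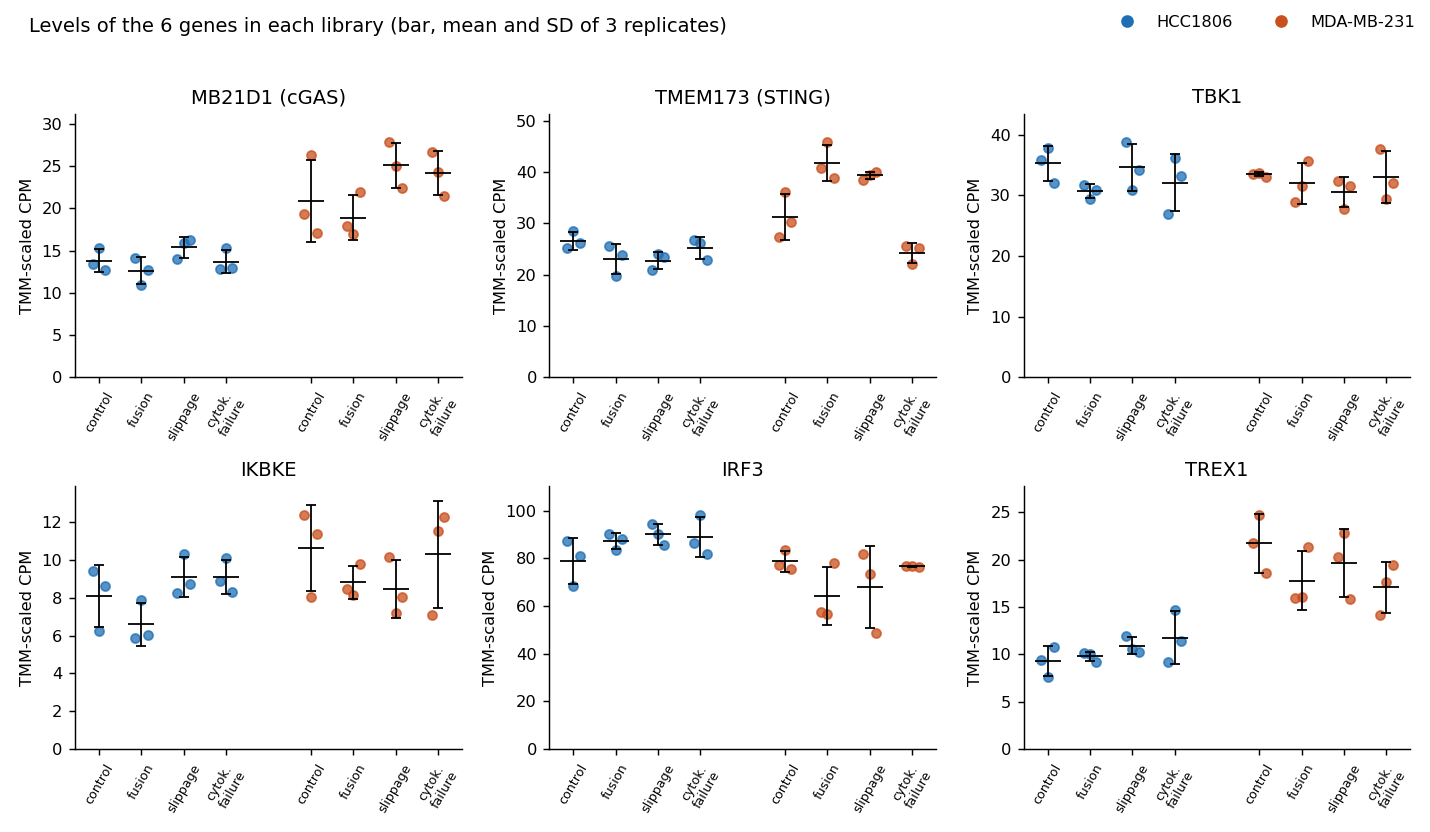
Levels of the 6 genes as TMM-scaled CPM in each library (points; blue, HCC1806; orange, MDA-MB-231) by group, with the mean and SD of 3 replicates as bars and a linear axis from 0. TMEM173 in MDA-MB-231 fusion (38.9 to 45.8 CPM) and slippage (38.5 to 40.0 CPM) lies above the other groups. By group mean, MB21D1 and TREX1 lie higher in MDA-MB-231 than in HCC1806. For TREX1 the libraries of the lines overlap, at 14.1 CPM in MDA-MB-231 cytokinesis failure replicate 1 and 14.7 CPM in HCC1806 cytokinesis failure replicate 2.

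**Figure D2:**
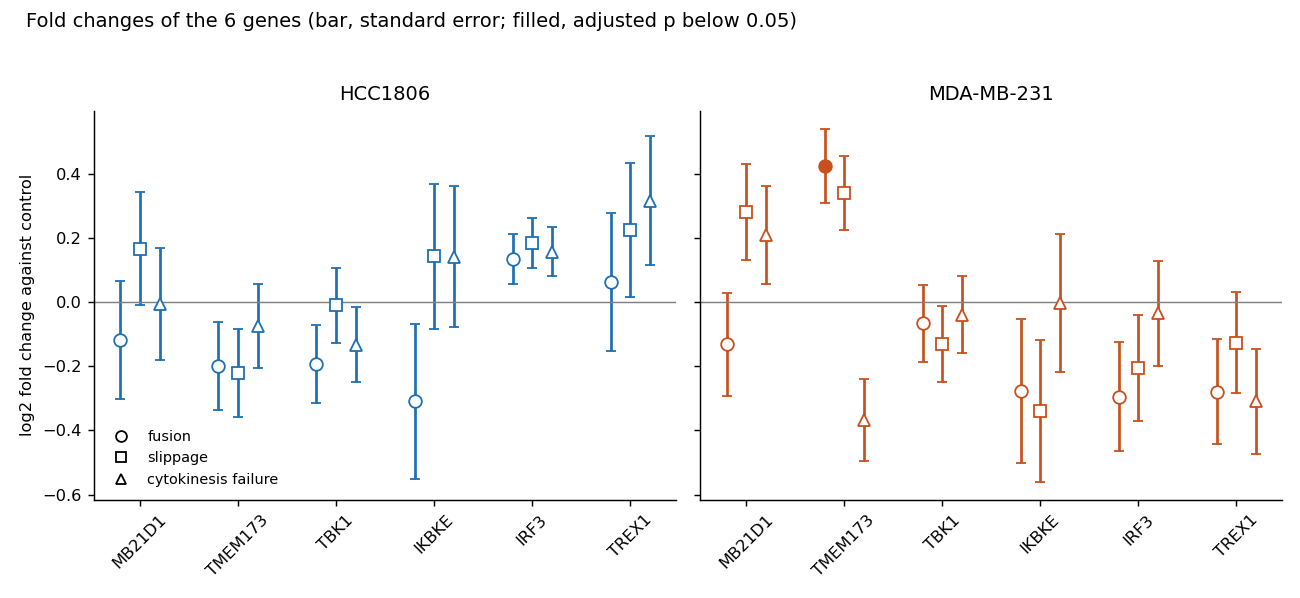
log2 fold change of each gene against the control of its line (y axis) with its standard error, for fusion (circles), slippage (squares) and cytokinesis failure (triangles); filled symbols passed an adjusted p of 0.05. TMEM173 in MDA-MB-231 fusion (0.43 ± 0.12) is the only filled symbol.

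TMEM173 (chromosome 5, 139475533 to 139482758 on GRCh38.p14, as for the positions below) encodes STING, the adaptor on which the signal of cGAS converges. Its transcript differed between the MDA-MB-231 populations and not detectably between those of HCC1806. In MDA-MB-231 it stood at 27.3, 36.1 and 30.2 CPM in the control replicates, at 40.8, 45.8 and 38.9 CPM in fusion, at 38.5, 39.5 and 40.0 CPM in slippage and at 25.5, 22.0 and 25.1 CPM in cytokinesis failure. The fusion and slippage libraries were all above, and the cytokinesis failure libraries all below, every control library. How many of all genes separate in this way was not counted. TMEM173 rose in fusion by 0.43 ± 0.12 (adjusted p = 0.00795), from 31.2 ± 4.50 to 41.8 ± 3.55 CPM (SD, n = 3). In slippage the difference from control was 0.34 ± 0.12 (adjusted p = 0.0704), and in cytokinesis failure -0.37 ± 0.13 (adjusted p = 0.0982), neither of which was called. The call in fusion was lost without control replicate 1 (0.34, adjusted p = 0.0743) and without fusion replicate 2 (0.36, adjusted p = 0.0711). It was also lost on the log2(TPM + 1) scale (0.29, adjusted p = 0.0929), on which the median of all genes was -0.11 and TMEM173 lay 0.39 above it.

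Between the doubled populations of MDA-MB-231, TMEM173 showed its widest differences. It was 0.79 ± 0.12 higher in fusion than in cytokinesis failure (adjusted p = 3.9e-06) and 0.71 ± 0.12 higher in slippage than in cytokinesis failure (adjusted p = 2.57e-04), with no overlap between libraries in either pair. Of all genes, 24.5% were called in the first pair and 3.18% in the second. Both calls were kept under all 21 alternatives, among them the log2(TPM + 1) scale (adjusted p = 0.00161 and 0.0172). Fusion and slippage differed by 0.08 ± 0.11 (adjusted p = 0.663), in a pair in which 17.1% of all genes were called. No other member was called in these 3 pairs, giving 2 calls in 18 tests; 4 were called without slippage replicate 3.

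In HCC1806, TMEM173 stood at 25.1, 28.5 and 26.1 CPM in control, at 25.6, 19.7 and 23.8 CPM in fusion, at 20.8, 23.9 and 23.4 CPM in slippage and at 26.7, 26.2 and 22.8 CPM in cytokinesis failure. The 3 differences from control lay between -0.22 and -0.07, and none was called (adjusted p from 0.411 to 0.758). All slippage libraries of HCC1806 were below all its control libraries, a separation not counted over all genes. Between its doubled populations, TMEM173 differed by -0.15 to 0.02, and 0 of the 18 tests of the 6 genes were called, with 0 below an unadjusted p of 0.05. All genes were called at 9.23% (fusion against slippage), 17.9% (fusion against cytokinesis failure) and 6.8% (slippage against cytokinesis failure) there. The response to fusion differed between the lines by 0.63 ± 0.18 (MDA-MB-231 minus HCC1806, adjusted p = 0.0102), where 12% of all genes were called. That call was lost without HCC1806 fusion replicate 2 (0.53, adjusted p = 0.057). For slippage the line difference was 0.56 ± 0.18 (adjusted p = 0.056; 3.54% of genes called), and for cytokinesis failure -0.30 ± 0.18 (adjusted p = 0.393; 6.53% of genes called). Without MDA-MB-231 control replicate 2, both the slippage difference in MDA-MB-231 (0.45, adjusted p = 0.0402) and its line difference (0.67, adjusted p = 0.0273) were called.

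Genes near TMEM173 on chromosome 5 were set beside it. Of the 65 tested genes within 5 Mb, 14 rose and 2 fell in MDA-MB-231 fusion, with a median of 0.14. In percentages, 21.5% of these neighbours rose, beside 9.34% of all genes. In cytokinesis failure 0 rose and 6 fell, with a median of -0.17; 9.23% of the neighbours fell beside 2.35% of all genes. Fusion against cytokinesis failure gave 34 higher and 0 lower, with a median of 0.29, and 52.3% were higher there beside 12.6% of all genes. In slippage 2 rose and 1 fell, with a median of -0.01. The median of the neighbours had the sign of the TMEM173 difference in fusion and in cytokinesis failure and lay near 0 in slippage. TMEM173 lay above 95.4% of them in fusion and in slippage and above 6.15% of them in cytokinesis failure. The DNA copy number of the region was not tested. Leukocyte markers, set here because immune cells express STING, summed to 65.7 to 74.1 CPM in MDA-MB-231 control, 87.5 to 107 CPM in fusion, 105 to 109 CPM in slippage and 103 to 120 CPM in cytokinesis failure. CD3E was at 0 in every MDA-MB-231 library, and the part of the leukocyte markers in the TMEM173 result was not tested.

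**Figure D3:**
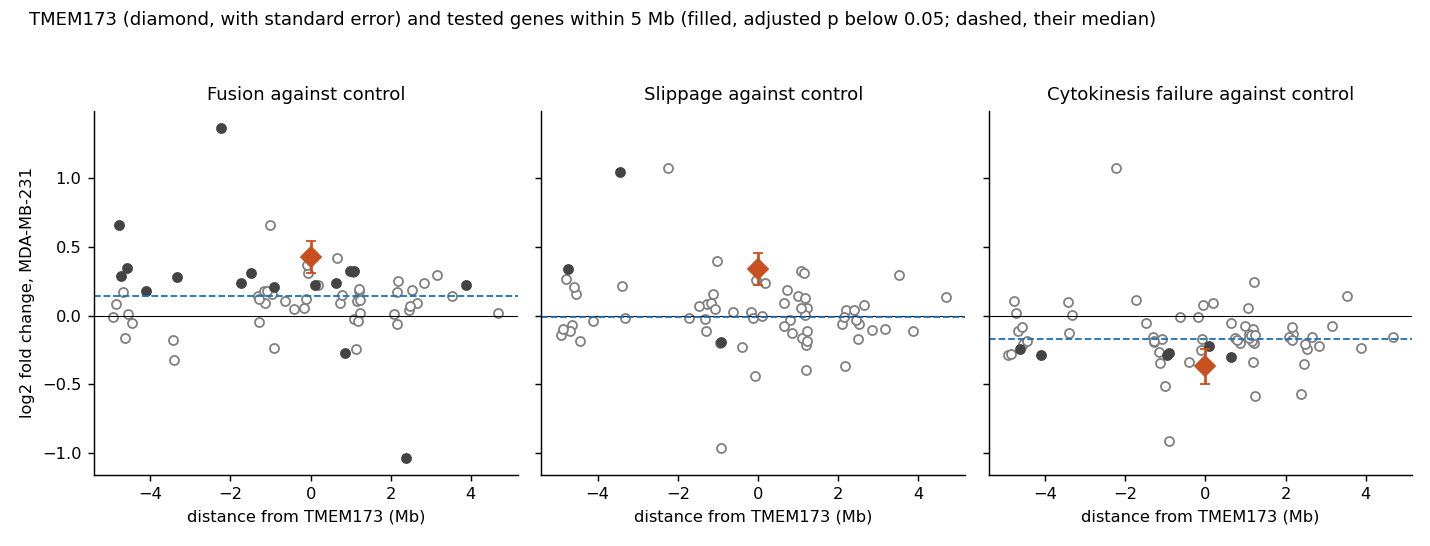
log2 fold change against control in MDA-MB-231 (y axis) of TMEM173 (orange diamond with its standard error) and of the 65 tested genes within 5 Mb, by distance from TMEM173 in Mb (x axis); filled points passed an adjusted p of 0.05 and the dashed line is the median of the neighbours. The median is 0.14 for fusion, -0.01 for slippage and -0.17 for cytokinesis failure.

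MB21D1 (chromosome 6, 73423711 to 73452297), the gene of cGAS itself, was higher in MDA-MB-231 than in HCC1806. The parental HCC1806 libraries read 13.4, 15.3 and 12.7 CPM and the parental MDA-MB-231 libraries 19.3, 26.3 and 17.1 CPM, with no overlap. MB21D1 was lower in parental HCC1806 by 0.60 ± 0.17 (adjusted p = 8.89e-04) in a comparison of the lines in which 76.2% of 12563 genes were called. The 4 MDA-MB-231 groups, with means of 18.9 ± 2.68 (fusion) to 25.1 ± 2.69 CPM (slippage), all ranked above the 4 HCC1806 groups, with means of 12.6 ± 1.62 (fusion) to 15.4 ± 1.23 CPM (slippage). In that order the libraries of each group overlapped those of the next, except between MDA-MB-231 fusion and HCC1806 slippage. Genes near MB21D1 on chromosome 6 mostly differed in the same direction: of the 19 tested within 5 Mb, 13 were lower and 3 higher in parental HCC1806, with a median of -0.71, and MB21D1 lay above 57.9% of them. In percentages, 68.4% of these neighbours were lower, beside 37.4% of all genes.

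Against control, MB21D1 differed by -0.12 to 0.17 in HCC1806 and by -0.13 to 0.28 in MDA-MB-231, and none of these 6 differences was called (adjusted p from 0.314 to 0.988). Within MDA-MB-231 its level was 17.9, 16.9 and 22.0 CPM in fusion, 27.8, 25.1 and 22.4 CPM in slippage and 26.7, 24.3 and 21.5 CPM in cytokinesis failure. All 3 fusion libraries were below all slippage libraries, a separation not counted over all genes. The difference was -0.41 ± 0.15 (adjusted p = 0.0602), which was not called. It was called without control replicate 2 (adjusted p = 0.0495), fusion replicate 3 (0.0357) or slippage replicate 3 (0.0392). By group mean, MDA-MB-231 fusion was the lowest of the 4 groups of the line for MB21D1 and the highest for TMEM173.

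TBK1 (chromosome 12, 64452120 to 64502114), the kinase that STING recruits, had the narrowest spread of group means of the 6 genes, 1.15-fold from lowest to highest. Its group means ran from 30.6 ± 2.48 CPM in MDA-MB-231 slippage to 35.3 ± 2.95 CPM in HCC1806 control, and each group overlapped the next in the order of levels. Its differences from control were -0.19 to -0.01 in HCC1806 and -0.13 to -0.04 in MDA-MB-231, with no call (adjusted p from 0.357 to 0.985). In HCC1806 fusion and in MDA-MB-231 slippage, all libraries were below all control libraries of the line, a separation not counted over all genes. The parental lines differed by 0.07 ± 0.12 (adjusted p = 0.602). IKBKE (chromosome 1, 206470476 to 206496889), the related kinase, was the least read, with 18 to 48 counts per library. Its group means ran from 6.59 ± 1.13 CPM in HCC1806 fusion to 10.6 ± 2.27 CPM in MDA-MB-231 control, again with overlap between neighbours in the order. The 6 differences from control, -0.34 to 0.14, had standard errors of 0.22 to 0.24 and were not called (adjusted p from 0.433 to 0.997), so that a change of the size seen for TMEM173 in fusion was under 2 standard errors for this gene.

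IRF3 (chromosome 19, 49659572 to 49665857), the transcription factor at the end of the route, had the most reads, 170 to 361 per library. In HCC1806 it stood at 87.2, 68.4 and 81.1 CPM in control, 90.2, 83.5 and 88.0 CPM in fusion, 94.3, 90.3 and 85.6 CPM in slippage and 86.6, 98.3 and 81.8 CPM in cytokinesis failure. The 3 differences from control were 0.14 ± 0.08, 0.18 ± 0.08 and 0.16 ± 0.08, above 0 in each population, and were not called (adjusted p = 0.301, 0.224 and 0.153). The mean of the 3 doubled populations was 0.16 ± 0.06 above control (adjusted p = 0.102, 9.69% of genes called). That difference was called without control replicate 1 (0.23, adjusted p = 0.0431), the highest of the control libraries. Control replicate 2, at 68.4 CPM, was the lowest library of the line, and all these differences share that control group.

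In MDA-MB-231, IRF3 read 77.1, 83.6 and 75.5 CPM in control, 57.4, 56.8 and 78.0 CPM in fusion, 81.7, 73.2 and 48.9 CPM in slippage and 76.6, 76.9 and 76.3 CPM in cytokinesis failure. Fusion held 2 low libraries and slippage 1, the latter being one of the noisier ones. IRF3 was -0.29 ± 0.17 in fusion against control (adjusted p = 0.285), which was not called. The fit shares its spread over the 4 groups, and without slippage replicate 3 the same difference had an adjusted p of 0.0187; it was 0.0456 without fusion replicate 3. The line difference in fusion was -0.43 ± 0.20 (adjusted p = 0.203), with an adjusted p of 0.0116 and 0.0306 without those libraries. Slippage and cytokinesis failure differed from control by -0.20 ± 0.17 and -0.03 ± 0.16 (adjusted p = 0.573 and 0.945). The parental lines read 78.9 ± 9.58 and 78.7 ± 4.28 CPM, a difference of 0.02 ± 0.14 (adjusted p = 0.924). IRF3 and BCL2L12 overlap only between 49665142 and 49665857, at the head of BCL2L12 and not at its 3′ end, which this method reads. Without a stated strand setting, reads of that stretch cannot be assigned, and their share of the IRF3 count was not measured. BCL2L12 was 0.34 ± 0.07 higher in parental HCC1806 (adjusted p = 2.85e-06).

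TREX1 (chromosome 3, 48465830 to 48467645), the exonuclease that removes cytosolic DNA, showed the largest difference between the parental lines of the 6 genes. Parental HCC1806 read 9.41, 7.64 and 10.8 CPM and parental MDA-MB-231 21.8, 24.8 and 18.6 CPM. TREX1 was lower in HCC1806 by 1.20 ± 0.18 (adjusted p = 1.57e-08), and no HCC1806 library of any group (7.64 to 14.7 CPM) reached the parental MDA-MB-231 level. Most genes of the region on chromosome 3 differed in the same direction: of the 134 tested genes within 5 Mb, 118 were lower and 5 higher in parental HCC1806, with a median of -1.38, and TREX1 lay above 56.7% of them. In percentages, 88.1% of these neighbours were lower, beside the 37.4% of all genes. The DNA copy number of either region was not tested. Against control, TREX1 differed by 0.06 to 0.32 in HCC1806 and -0.31 to -0.13 in MDA-MB-231. None was called (adjusted p from 0.258 to 0.899), and the line difference in cytokinesis failure was -0.63 ± 0.26 (adjusted p = 0.153).

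TREX1 lies inside the 3′ part of ATRIP, a partner of the DNA damage kinase ATR, and in RefSeq both genes end at position 48467645. A method that reads 3′ ends therefore cannot be relied on to part them, and the count of TREX1 is uncertain. ATRIP differed between the parental lines by -1.11 ± 0.18 (adjusted p = 3.29e-08), close in size to TREX1. The ratio of TREX1 to ATRIP counts had a median of 1.16 over the 12 HCC1806 libraries (0.815 to 1.57) and 0.993 over the 12 MDA-MB-231 libraries (0.667 to 1.24).

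**Figure D4:**
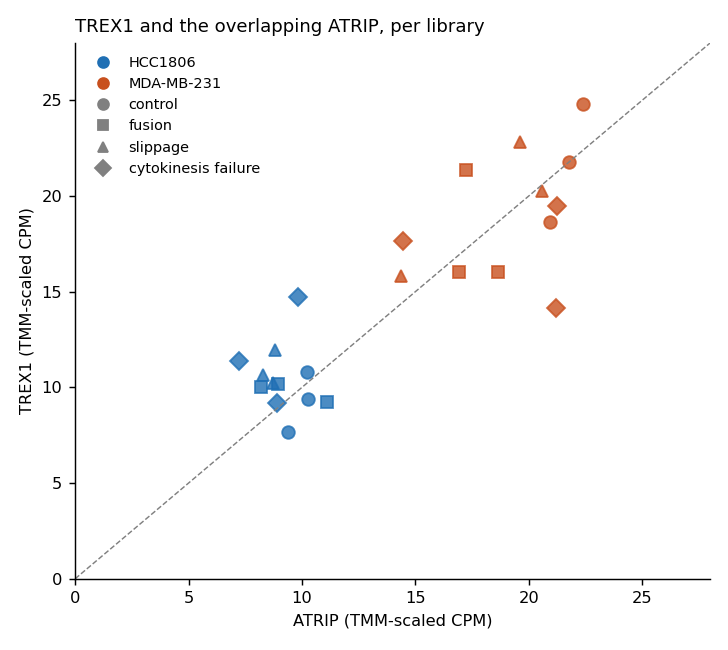
TREX1 (y axis) against ATRIP (x axis), both in TMM-scaled CPM, 1 point per library, coloured by line and shaped by group; the dashed line marks equal levels. HCC1806 libraries lie at 7.64 to 14.7 CPM of TREX1 and 7.24 to 11.1 CPM of ATRIP, and MDA-MB-231 libraries at 14.1 to 24.8 and 14.4 to 22.4 CPM.

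The order of levels between the 6 genes depended on the scale, since TPM divide by length and a 3′ method reads transcript ends whatever the length. IRF3 had the highest mean over the 24 libraries on both scales (79.1 CPM and 102 TPM). Without division by length it was followed by TBK1 (32.7), TMEM173 (29.3), MB21D1 (18.1), TREX1 (14.7) and IKBKE (8.88 CPM), and in the deposited TPM by TMEM173 (14.4), MB21D1 (10.0), TBK1 (9.81), TREX1 (9.24) and IKBKE (2.45 TPM). Between the parental lines, TMEM173 (-0.23 ± 0.12, adjusted p = 0.0841) and IKBKE (-0.38 ± 0.22, adjusted p = 0.11) were lower in HCC1806 without a call. TMEM173 was called on the log2(TPM + 1) scale (-0.36, adjusted p = 0.00474), on which the median of all genes was -0.12, and without MDA-MB-231 control replicate 1 (-0.32, adjusted p = 0.0305); IKBKE was called on that scale (-0.39, adjusted p = 0.0315) and without that line's control replicate 2 (-0.53, adjusted p = 0.0362).

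Across the 24 libraries, after removal of the mean of each line, log2 CPM of TMEM173 and IRF3 had a Pearson r of -0.47, and TMEM173 and MB21D1 one of -0.05. MB21D1 had an r of 0.37 with IRF3 and of 0.30 with TBK1. The libraries share populations, so these values are a description. Of 7575 genes with a mean of at least 16 CPM, those most like TMEM173 were ISCU (r = 0.81), HTATIP2 (0.79) and ZNF618 (0.79). Their r with TMEM173 was 0.86, 0.84 and 0.89 over the 12 MDA-MB-231 libraries and 0.51, 0.49 and 0.37 over the 12 of HCC1806. The closest to IRF3 were RPL29, RNF40 and RBM42 (0.82 each), at 0.93, 0.86 and 0.88 in MDA-MB-231 and 0.53, 0.73 and 0.69 in HCC1806. The closest to TBK1 were NFYA (0.72), C19orf52 (0.71) and PAK1IP1 (0.71), at 0.63, 0.72 and 0.71 in MDA-MB-231 and 0.78, 0.74 and 0.73 in HCC1806. No gene reached 0.7 with MB21D1; IKBKE and TREX1 were below 16 CPM and were not compared.

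The genes around the 6 were described through 9 lists of 142 genes: DNA sensors, nucleases, cGAMP handling, TBK1 adaptors, the RNA-sensing arm, IRF and STAT factors, interferon outputs, the NF-kB arm and the nuclear envelope. Of 117 tested in HCC1806, 9 rose and 4 fell in fusion (11.1%), 0 rose and 1 fell in slippage (0.855%), and 13 rose and 9 fell in cytokinesis failure (18.8%). Of 125 tested in MDA-MB-231, 21 rose and 6 fell in fusion (21.6%), 14 rose and 3 fell in slippage (13.6%), and 5 rose and 12 fell in cytokinesis failure (13.6%). Beside these stand the shares of all genes, 10.9%, 3.33% and 17% in the same order for HCC1806 and 17.4%, 6.18% and 4.64% for MDA-MB-231. The listed share was below that of all genes in HCC1806 slippage and above it in the other 5 comparisons, differences that were not tested. The lists were chosen with earlier results of these data known, so a higher listed share can come from that choice and is only a description. On the log2(TPM + 1) scale the split was 2 up and 10 down in MDA-MB-231 fusion, 4 and 5 in HCC1806 fusion, 13 and 4 in HCC1806 cytokinesis failure, and 1 and 8 in MDA-MB-231 cytokinesis failure; it was 3 and 1 in MDA-MB-231 slippage and 0 and 1 in HCC1806 slippage. The 22 calls in HCC1806 cytokinesis failure were 14 without its replicate 1. The 17 in MDA-MB-231 cytokinesis failure were 11 without control replicate 1 or 3, and the 17 in slippage were 10 without control replicate 2 and 11 without slippage replicate 2 or 3.

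The list of IRF3 and interferon outputs held the most uniform change. In MDA-MB-231 cytokinesis failure 7 of its 12 tested genes fell and 0 rose, with a median of -0.76, where 2.35% of all genes fell and their median was 0.00. This list too was chosen with earlier results of these data known. IFIT1 and IFIT3, which bind foreign RNA and relay antiviral signals, BST2, the tetherin that holds budding viruses, and ISG15, a ubiquitin-like protein, are named by the rule; IFIT2, OASL and MX1 are named after their values were seen. IFIT3 fell by 0.73 ± 0.06 (adjusted p = 1.95e-11), from 257, 263 and 266 CPM in control to 146, 160 and 165 CPM. IFIT1 fell by 0.78 ± 0.09 (adjusted p = 4.32e-08), from 85.1, 79.4 and 85.8 CPM to 47.9, 48.3 and 48.9 CPM. BST2 fell by 0.76 ± 0.09, from 88.9, 87.2 and 90.0 CPM to 48.3, 53.2 and 54.0 CPM (adjusted p = 3.24e-07). ISG15 fell by 0.78 ± 0.11, from 79.3, 61.2 and 73.2 CPM to 44.4, 42.1 and 38.6 CPM (adjusted p = 4.96e-06). In all 4 genes the libraries of the groups did not overlap, and each of the 4 calls was kept under all 21 alternatives. IFIT2 fell by 0.76 ± 0.09, OASL by 0.75 ± 0.15 and MX1 by 1.35 ± 0.41 (adjusted p = 1.08e-07, 6.36e-04 and 0.046). MX1 had at most 20 counts in any MDA-MB-231 library, so the size of its fall is limited by depth. The leukocyte marker sums given above were higher in each doubled MDA-MB-231 population than in control, and their part in these results was not tested.

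The other populations did not share this change as a group. In MDA-MB-231 slippage 4 of 12 outputs rose and 1, BST2, fell (-0.67 ± 0.09, adjusted p = 3.74e-06), with a median of 0.25. Of all genes, 6.18% were called there, and 3 outputs were called without control replicate 2 or slippage replicate 3. In fusion 2 of 12 rose and 1, IFIT1, fell (-0.50 ± 0.09, adjusted p = 4.3e-05), with a median of -0.01. Of all genes, 17.4% were called in fusion, and 2 to 4 outputs were called when single libraries were left out. In HCC1806, 8 outputs were tested, and 1 rose in fusion (10.9% of all genes called), which was 0 with some single libraries left out. In slippage 0 were called (3.33% of all genes), and in cytokinesis failure 2 rose (17% of all genes called). IFIT1 rose in cytokinesis failure by 0.64 ± 0.12 (adjusted p = 3.32e-05), from 27.6, 21.5 and 26.1 CPM to 41.1, 40.3 and 37.0 CPM. ISG15 rose there by 0.37 ± 0.12 (adjusted p = 0.0184), a call lost without control replicate 1 or 2 or cytokinesis failure replicate 1 or 2 (adjusted p from 0.0622 to 0.0796). The response to cytokinesis failure differed between the lines for IFIT1 (-1.43 ± 0.15, adjusted p = 3.77e-12) and ISG15 (-1.16 ± 0.16, adjusted p = 1.64e-07), and not detectably for IFIT3 (-0.31 ± 0.16, adjusted p = 0.301). The interferon gene IFNB1 had at most 1 count in any library and the chemokine gene CXCL10 at most 2, so that interferon transcripts themselves were not detectable at this depth.

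**Figure D5:**
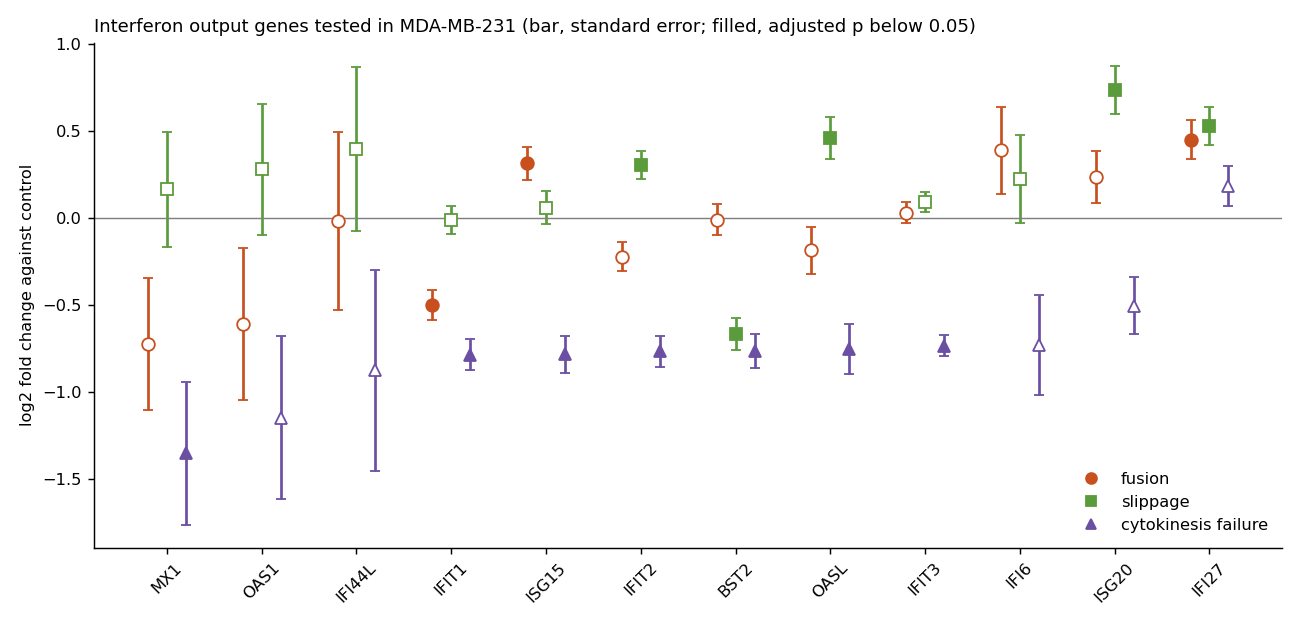
log2 fold change against control (y axis) with its standard error for the 12 interferon output genes tested in MDA-MB-231, in fusion (orange circles), slippage (green squares) and cytokinesis failure (purple triangles); filled symbols passed an adjusted p of 0.05. The 7 filled triangles lie between -1.35 (MX1, at most 20 counts per library) and -0.73 (IFIT3).

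The promoters of IFIT1 and BST2, which fell together with a set of IRF3 and interferon targets, show the element that such factors bind. The 250 bases before each start site are printed 5′ to 3′ along the gene's strand, from RefSeq on GRCh38.p14: IFIT1 at chr10:89392373-89392622 (plus strand) and BST2 at chr19:17405631-17405880 (minus strand). Capitals mark matches to the core of the interferon-stimulated response element, read as GAAA, any 2 bases and GAAA again, searched on both strands; overlapping matches are merged in BST2.
IFIT1: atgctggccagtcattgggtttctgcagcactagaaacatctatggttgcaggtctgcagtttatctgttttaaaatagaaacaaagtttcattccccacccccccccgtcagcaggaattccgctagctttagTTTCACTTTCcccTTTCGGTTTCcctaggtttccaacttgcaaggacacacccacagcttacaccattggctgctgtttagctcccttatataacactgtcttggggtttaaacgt
BST2: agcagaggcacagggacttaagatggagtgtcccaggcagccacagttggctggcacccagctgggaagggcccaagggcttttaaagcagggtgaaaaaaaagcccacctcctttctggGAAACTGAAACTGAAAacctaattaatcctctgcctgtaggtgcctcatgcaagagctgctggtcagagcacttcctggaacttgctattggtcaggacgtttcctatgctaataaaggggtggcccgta
IFIT1 holds 2 matches on the reverse strand and BST2 2 overlapping matches on the forward strand. Of the 10 tested outputs with a promoter sequence, 9 held the motif in any promoter, and 14 of 17 of the whole list did. Of all 35116 promoters of that length, each taken singly, 3.02% held it. Of the 3 members with a promoter sequence, TBK1, IKBKE and TREX1, 0 held it, and ENPP1 and IFI16 had 0 matches. The outputs were listed as interferon targets, so a high share follows from that choice. It does not bear on why they fell, and the part of the motif was not tested.

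Of the list of cGAMP handling and STING regulation, ENPP1 is described in every comparison with control that tested it. LRRC8A is described in part: its differences from control in HCC1806 fusion and in MDA-MB-231 slippage and cytokinesis failure are not given. ENPP1, the ectoenzyme that hydrolyses extracellular cGAMP, rose in all 3 doubled MDA-MB-231 populations: from 136, 136 and 130 CPM in control to 177, 170 and 176 CPM in fusion, 163, 156 and 180 CPM in slippage and 213, 198 and 199 CPM in cytokinesis failure. No doubled library overlapped the controls. The changes were 0.38 ± 0.06, 0.31 ± 0.06 and 0.60 ± 0.06 (adjusted p = 2.6e-05, 0.00125 and 9.52e-09); on the log2(TPM + 1) scale the first and second were not called (adjusted p = 0.0765 and 0.289). In HCC1806, ENPP1 had at most 3 counts per library and was not tested. LRRC8A, a subunit of the volume-regulated anion channel through which cGAMP passes between cells, fell in HCC1806 slippage (-0.57 ± 0.11, adjusted p = 1.58e-04) and cytokinesis failure (-0.80 ± 0.11, adjusted p = 4.59e-09), from 44.5, 54.5 and 50.4 CPM in control to 31.9, 32.2 and 36.1 CPM and 29.0, 28.3 and 27.9 CPM. In MDA-MB-231 it rose in fusion (0.33 ± 0.07, adjusted p = 5.9e-04; 0.0611 on the log2(TPM + 1) scale), with 116, 112 and 108 CPM against 87.8, 88.9 and 91.3 CPM. The line difference was called for fusion (0.51 ± 0.12), slippage (0.78 ± 0.12) and cytokinesis failure (1.05 ± 0.12; adjusted p = 0.00135, 4.42e-06 and 3.73e-10). Of the whole list, 19 genes were tested in each line. In MDA-MB-231, 4 rose and 1 fell in fusion (17.4% of all genes called), 2 rose in slippage (6.18%) and 2 in cytokinesis failure (4.64%). In HCC1806, 1 rose in fusion (10.9% of all genes called), 1 fell in slippage (3.33%), and 2 rose and 2 fell in cytokinesis failure (17%). The line difference was called for 2, 1 and 2 of 20 genes in fusion, slippage and cytokinesis failure, beside 12%, 3.54% and 6.53% of all genes. The 5 calls in MDA-MB-231 fusion were 3 without control replicate 1 or 2 or fusion replicate 2, and 2 without fusion replicate 1; on the log2(TPM + 1) scale 0 rose and 2 fell there. The 2 in MDA-MB-231 slippage were 1 without control replicate 2 or 3, and the 2 in cytokinesis failure were 1 without any 1 control library or cytokinesis failure replicate 1 or 2. In HCC1806 the 1 in fusion became 2 without control replicate 3, and the 4 in cytokinesis failure were 2 without its replicate 3.

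Among other DNA sensors, 6 of 14 rose and 0 fell in MDA-MB-231 fusion, with a median of 0.22, where 17.4% of all genes were called and 9.34% rose; 5 to 8 were called when single libraries were left out, and 1 on the log2(TPM + 1) scale. In MDA-MB-231 slippage 2 rose and 1 fell (6.18% of all genes called), and 1 rose in cytokinesis failure (4.64%). Of 13 tested in HCC1806, 1 rose and 1 fell in fusion (10.9% of all genes called) and likewise in cytokinesis failure (17%), and 0 were called in slippage (3.33%). The 3 calls in MDA-MB-231 slippage were at most 1 when any control or slippage library was left out, and the 1 in cytokinesis failure, IFI16, is given with its exceptions next. In HCC1806 the 2 in fusion were 1 without fusion replicate 2, and the 2 in cytokinesis failure were 1 without control replicate 1 or cytokinesis failure replicate 1 or 3. IFI16, a sensor of DNA in nucleus and cytosol that acts with STING, rose in MDA-MB-231 fusion (0.33 ± 0.07, adjusted p = 8.61e-04), slippage (0.23 ± 0.07, adjusted p = 0.0397) and cytokinesis failure (0.26 ± 0.07, adjusted p = 0.0272). The call in slippage was lost without control replicate 1 or 3 or any 1 slippage library (adjusted p from 0.0587 to 0.293), and that in cytokinesis failure without control replicate 1 or 3 or cytokinesis failure replicate 1 or 3 (0.0678 to 0.263). On the log2(TPM + 1) scale none of the 3 was called (adjusted p from 0.0771 to 0.177). In HCC1806 cytokinesis failure IFI16 fell by 0.48 ± 0.09 (adjusted p = 3.56e-05), and the line difference there was 0.73 ± 0.11 (adjusted p = 1.49e-06). HMGB2, a chromatin protein that also binds cytosolic DNA, rose in fusion of both lines (0.28 ± 0.06 in HCC1806 and 0.40 ± 0.06 in MDA-MB-231, adjusted p = 1.1e-04 and 6.89e-06).

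Of the TBK1 adaptors, 12 were tested in HCC1806 and 11 in MDA-MB-231. In HCC1806, 1 rose and 1 fell in cytokinesis failure (17% of all genes called), and fusion and slippage held no call. In MDA-MB-231, 1 rose in fusion (17.4% of all genes called), 1 rose and 1 fell in slippage (6.18%), and 2 fell in cytokinesis failure (4.64%). Each of these counts was lower by 1 without at least 1 library: in HCC1806 cytokinesis failure without control replicate 2 or 3 or cytokinesis failure replicate 1, in MDA-MB-231 fusion without control replicate 3, in slippage without slippage replicate 2 and in cytokinesis failure without its replicate 2; fusion had 2 without cytokinesis failure replicate 1.

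Of IRF and STAT factors 0 of 13 were called in each of the 3 HCC1806 comparisons (1 in fusion without its replicate 1, and 1 in cytokinesis failure without its replicate 3) and 1 of 15, STAT6, in MDA-MB-231 fusion, a call lost when control replicate 2 or 3, fusion replicate 1 or fusion replicate 2 was left out. In the nuclear envelope list, whose proteins include lamins and the repair machinery of ruptured nuclei, 4 of 14 rose and 0 fell in HCC1806 fusion, where 10.9% of all genes were called, among them LBR (0.29 ± 0.05, adjusted p = 2.41e-05) and SUN2 (0.39 ± 0.08, adjusted p = 1.88e-04). In HCC1806 cytokinesis failure 3 rose (17% of all genes called) and in slippage none was called. In MDA-MB-231, fusion held 3 that rose, slippage 1 and cytokinesis failure 2 (17.4%, 6.18% and 4.64% of all genes called), and none fell; on the log2(TPM + 1) scale 0 rose and 1 fell in fusion, and the other populations of that line held no call. The 3 in fusion were 5, of which 1 fell, without slippage replicate 3 or cytokinesis failure replicate 1. The 2 in cytokinesis failure were 0 without control replicate 1 and 1 without control replicate 2 or 3 or cytokinesis failure replicate 1 or 2. SUN2, a linker of the nucleus to the cytoskeleton, also rose in HCC1806 cytokinesis failure (0.42 ± 0.08, adjusted p = 2.37e-05).

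In the NF-kB arm, which STING can also engage, 2 of 17 rose and 4 fell in HCC1806 cytokinesis failure, where 17% of all genes were called. Among those that fell was RELB (-1.40 ± 0.35, adjusted p = 0.00218), with at most 26 counts in any HCC1806 library. In HCC1806 fusion 1 fell (10.9% of all genes called), which became 2 calls without fusion replicate 3 or cytokinesis failure replicate 2, and slippage held no call. Of 18 tested in MDA-MB-231, 2 fell in fusion, 2 rose in slippage and 1 fell in cytokinesis failure (17.4%, 6.18% and 4.64% of all genes called). These counts were 1 in fusion when replicate 1 or 2 of either group was left out, 1 in slippage without control replicate 2 or slippage replicate 1, and 0 in cytokinesis failure without control or cytokinesis failure replicate 2 or 3. MAP3K14, the NF-kB-inducing kinase, fell in MDA-MB-231 fusion (-0.61 ± 0.14, adjusted p = 0.00167).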

How the data were processed

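3′ tag sequencing of polyadenylated RNA was deposited for 24 libraries, 3 replicates in each of 8 groups. The deposited gene table holds estimated counts made by the authors with Salmon; STAR, Salmon and the build GRCh38 are named per the submitters' processing notes, without versions, and the annotation, strand setting, trimming and any use of molecular identifiers are not given in the sources used here. Of its values, 4.41% were not whole, and all were rounded. TPM were deposited by the authors as a separate table and were used for levels per length and as an alternative scale, log2(TPM + 1) and log2(TPM + 0.1) with limma 3.58.1. Of 29744 rows, 61 had duplicated names.

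Each line was fitted apart with edgeR 4.0.16 in R 4.3.3 (filterByExpr, TMM, robust quasi-likelihood F-test on 12 libraries and 4 groups). Line differences and the parental comparison came from a fit of all 24 libraries. Standard errors were taken from the F statistic, and CPM were scaled by TMM, with a prior count of 2 for log2 CPM. On simulated counts for fusion against control, 51 of 99 genes changed by 0.5 (log2) and 84 of 100 changed by 1 were recovered in HCC1806 (11350 genes tested), and 41 of 100 and 75 of 98 in MDA-MB-231 (11290 genes tested).

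The members and gene lists were chosen with earlier results of these data known. Other genes named were, per list and line, up to 3 with the smallest adjusted p for the mean of the doubled populations against control, and up to 4 called alike in all 3; for each member with a mean of at least 16 CPM, the 3 most correlated genes with r of at least 0.7 were also named. Alternatives were DESeq2 1.42.0, other size factors, 2 TPM scales, no filter, a stricter filter (5 CPM in 3 libraries), the 6 libraries compared alone, each library left out, and a replicate block; leaving out both noisier libraries was added after seeing the data. Gene positions and promoters are from RefSeq on GRCh38.p14, where 3 of the 6 members had a promoter sequence.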

Additional observations from a re-analysis of the deposited data

Results flagged for a closer look

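The response to a doubling route differed between the lines, by a test of the difference itself, for TMEM173 in fusion (0.63, MDA-MB-231 minus HCC1806, log2; adjusted p = 0.0102). Of the pathway genes named, LRRC8A differed in fusion (0.51), slippage (0.78) and cytokinesis failure (1.05), with adjusted p of 0.00135, 4.42e-06 and 3.73e-10. For cytokinesis failure IFI16 differed by 0.73 (adjusted p = 1.49e-06), ISG15 by -1.16 (adjusted p = 1.64e-07) and IFIT1 by -1.43 (adjusted p = 3.77e-12). The call for TMEM173 was lost without HCC1806 fusion replicate 2 (0.53, adjusted p = 0.057). The other 6 differences kept their call and direction under all 32 alternatives run on them. Each route is 1 population per line, so a difference between lines cannot be told apart from one between populations.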

How the results depend on the processing

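In MDA-MB-231, the 1 call among the 6 genes against control became 0 on both TPM scales, 2 with no filter, 2 with only the 6 libraries compared and 2 without both noisier libraries, and ran from 0 to 2 with single libraries left out. The 1 call among line differences became 3 with no filter and 2 without both noisier libraries (0 to 2 with single libraries left out), and the 2 calls between doubled MDA-MB-231 populations became 4 on both TPM scales and 5 without both noisier libraries (2 to 4). TMEM173 in MDA-MB-231 fusion was 0.30 on log2(TPM + 0.1) and 0.29 on log2(TPM + 1), uncalled, and 0.34 to 0.54 with single libraries left out; its line difference in fusion ran from 0.53 to 0.74. The cause was not tested.

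Differences that turned sign were small and uncalled. On log2(TPM + 0.1) and log2(TPM + 1) they were IKBKE in the HCC1806 mean (0.018 and 0.012), IRF3 (-0.19 and -0.19) and TBK1 (-0.087 and -0.080) between parental lines, MB21D1 in HCC1806 cytokinesis failure (0.035 and 0.031) and mean (-0.0018 and -6.47e-04), and TMEM173 in MDA-MB-231 fusion against slippage (-0.014 and -0.014). IKBKE in MDA-MB-231 cytokinesis failure became 0.0018 with no filter and 0.16 without both noisier libraries, which also turned IRF3 in slippage against cytokinesis failure (0.013) and TREX1 in slippage (0.0050). With single libraries left out, IKBKE ran from -0.15 to 0.11 (HCC1806 mean) and -0.16 to 0.16 (MDA-MB-231 cytokinesis failure). IRF3 ran from -0.061 to 0.011 (MDA-MB-231 cytokinesis failure), -0.27 to 0.057 (fusion against slippage), -0.32 to 0.0095 (slippage against cytokinesis failure) and -0.057 to 0.10 (parental). MB21D1 ran from -0.093 to 0.061 (HCC1806 cytokinesis failure), -0.044 to 0.081 (HCC1806 mean), -0.26 to 0.060 (MDA-MB-231 fusion), -0.0078 to 0.31 (MDA-MB-231 mean) and -0.0084 to 0.14 (slippage against cytokinesis failure). TBK1 ran from -0.10 to 0.057 (HCC1806 slippage), -0.12 to 0.039 (MDA-MB-231 cytokinesis failure) and -0.15 to 0.0038 (MDA-MB-231 fusion), TMEM173 from -0.057 to 0.13 (HCC1806 fusion against slippage), and TREX1 from -0.047 to 0.19 (HCC1806 fusion) and -0.25 to 0.0033 (MDA-MB-231 slippage).

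Same-numbered libraries did not as a set deviate together (median correlation -0.0049 in HCC1806, 0 of 18 above 0.1, and -0.030 in MDA-MB-231, 4 of 18). The numbers were therefore not taken to pair samples. Of differently numbered pairs, 0 of 36 in HCC1806 and 12 of 36 in MDA-MB-231 were above 0.1. MDA-MB-231 control replicate 2, fusion replicate 3, slippage replicate 2 and cytokinesis failure replicate 3 all correlated with each other (0.23 to 0.33). The fits do not model a factor shared across groups in this way, and its source was not tested. With the replicate block TMEM173 in MDA-MB-231 fusion was 0.42 (adjusted p = 0.0126), IKBKE in cytokinesis failure turned to 0.0071, and calls over all genes against control were 0.829 to 0.995 times the main number. DESeq2 called 0.372 to 0.601 times as many genes, and log2(TPM + 1) 0.230 to 0.856 times. With DESeq2 the calls over the 9 lists were 10 against 22 in HCC1806 cytokinesis failure, 17 against 27, 10 against 17 and 11 against 17 in MDA-MB-231 fusion, slippage and cytokinesis failure; on log2(TPM + 1) the last 3 were 12, 4 and 9. The split of all calls in MDA-MB-231 fusion was 53.5% higher in the main fit and 18.3% on log2(TPM + 1), where the median of all genes moved by -0.10. IKBKE and TREX1, with 18 to 92 counts per library, are limited by depth.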
